A study of Mus musculus with 15 samples.

Results

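The 41 genes described here encode enzymes that put methyl groups on histones or arginine residues, or take them off, together with the core partners Eed and Suz12. They are a list of named genes covering 28 writer or partner genes and 13 demethylases, and all 41 were found among the 37620 gene IDs of the files, 40 by symbol and Prmt1 through its transcript IDs. No measured value was used to choose them, although the list was drawn up with earlier results of these data known.

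RNA was sequenced from pulmonary tumours grown from B16-F10.1, a pigmented mouse melanoma line, in male C57BL/6J mice that were 8 weeks old when 100000 cells entered the tail vein. The test diet began 21 days later and lasted 2 weeks. There were 3 libraries from the methionine adequate diet, for which the labels give no percentage, 6 from the diet supplemented to 300% methionine, 3 from the diet restricted to 25% and 3 from the deficient diet with 0%. All groups share the tumour line, host strain and sex, and the labels name no genotype or drug that differed between diets. They do not say whether every library came from its own mouse, so a p-value here weighs a difference against a library-to-library spread that may in part be technical.

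Methionine is converted to S-adenosylmethionine, the methyl donor of these writer enzymes, which add methyl groups to lysines of histone H3 such as K4, K9, K27, K36 and K79, or to arginines of histones and other proteins. Demethylases of the Kdm1 type use a flavin cofactor, and the JmjC demethylases need iron and 2-oxoglutarate. H3K4 and H3K36 methylation is found at active genes and along transcribed gene bodies, whereas H3K9 and H3K27 methylation marks repressed chromatin, and EZH2 is a known cancer-associated enzyme in melanoma.

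The start regions of 3 members are shown. Ezh2 and Suv39h1 were chosen because they had the highest Pearson's r with a mitotic gene list, given further on. Ezh1 was added as the paralog of Ezh2. Neither r passed after adjustment (adjusted p = 0.191 for both by permutation test). By Spearman's rho, Ezh2 (0.407) was below several other members, and Prmt5 was highest at 0.629. E2F factors are known regulators of cell cycle genes. Sequences are from RefSeq on GRCm38.p6, whereas the counts were made on NCBIM37, so the letters are a description of the gene and not of any read. Each begins 250 bases before the annotated start, runs 5′ to 3′ on the gene's strand, and has the match to an E2F-type motif in capitals. The Ezh2 run is chr6:47595020-47595280 on the minus strand and extends to the end of its match, 11 bases past the start.
Ezh2: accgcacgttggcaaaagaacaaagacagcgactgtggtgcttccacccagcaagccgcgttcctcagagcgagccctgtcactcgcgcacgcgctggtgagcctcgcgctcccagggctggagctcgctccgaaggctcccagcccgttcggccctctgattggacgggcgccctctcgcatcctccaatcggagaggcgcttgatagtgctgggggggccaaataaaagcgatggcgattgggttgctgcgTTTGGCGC
The Suv39h1 run, one of its 2 annotated start regions, is chrX:8074362-8074611 on the minus strand and holds 0 CCAAT matches. The other, chrX:8074761-8075010, is not printed and holds 0 E2F-type and 2 CCAAT matches.
Suv39h1: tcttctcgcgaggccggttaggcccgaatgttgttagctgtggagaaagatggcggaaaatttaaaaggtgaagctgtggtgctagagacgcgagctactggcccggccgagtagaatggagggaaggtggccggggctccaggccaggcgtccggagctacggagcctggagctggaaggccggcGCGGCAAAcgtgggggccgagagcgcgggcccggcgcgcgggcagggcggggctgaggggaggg
The Ezh1 run is chr11:101226464-101226713 on the minus strand and holds no match.
Ezh1: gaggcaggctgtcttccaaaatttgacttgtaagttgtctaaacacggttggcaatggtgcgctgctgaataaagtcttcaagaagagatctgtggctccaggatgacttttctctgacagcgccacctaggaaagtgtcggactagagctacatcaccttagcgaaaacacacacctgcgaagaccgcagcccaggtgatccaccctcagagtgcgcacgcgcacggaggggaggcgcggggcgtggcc
The motif was searched on both strands as TTTCCCGC, TTTCGCGC, TTTGCCGC or TTTGGCGC in windows that reach 50 bases past the start. It was found in 3 of the 31 members with a window in the table (Ezh2, Suz12 and Suv39h1), or 9.68%, and in 2.6% of all 27025 genes with such a window. Suz12 had r = 0.102 and rho = -0.15 with the mitotic list. Whether E2F factors act on these genes was not tested. The CCAAT motif, searched on both strands, was in 15 of the 31 members (48.4%) and 41.1% of all genes. The Ezh2 run held 3 CCAAT matches and the Ezh1 run 0.

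The 15 libraries held 13107679 to 29994264 counts. All 8 melanocyte markers were detected in every diet, with a summed 14390 to 28310 CPM, that is counts relative to the TMM-scaled library total. The 14 alveolar markers of lung epithelium summed to 86.3 CPM in the lowest library (supplemented 5) and 8257 in the highest (deficient 3), so the libraries held very different amounts of lung RNA, and in bulk tissue fewer cells of a type and less RNA per cell cannot be told apart. Muscle markers summed to 1415 CPM in supplemented 5. Library adequate 1 had a scaling factor of 0.690, the lowest of the 15.

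All 41 genes passed the filter on low counts, and the lowest count of any member in any library was 30 (Suv39h2). Per kb of effective transcript length, which allows genes to be compared, the median member stood at 10.8 CPM per kb. Prmt1, the main enzyme for asymmetric arginine dimethylation, was highest at 54.9 ± 13.1 CPM per kb (SD, n = 15). Ehmt2, which encodes the H3K9 dimethylase G9a, followed at 44.1 ± 8.17, and Smyd2, a lysine methyltransferase with histone and other protein substrates, stood at 32.7 ± 6.37. Suv39h2, Setd1b and Kdm6b were the 3 lowest, at 1.76, 1.93 and 3.77 CPM per kb. Among role groups, the 7 arginine methyltransferases had a median of 19.7 CPM per kb and the 5 H3K4 methyltransferases one of 7.64.

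**Figure D1:**
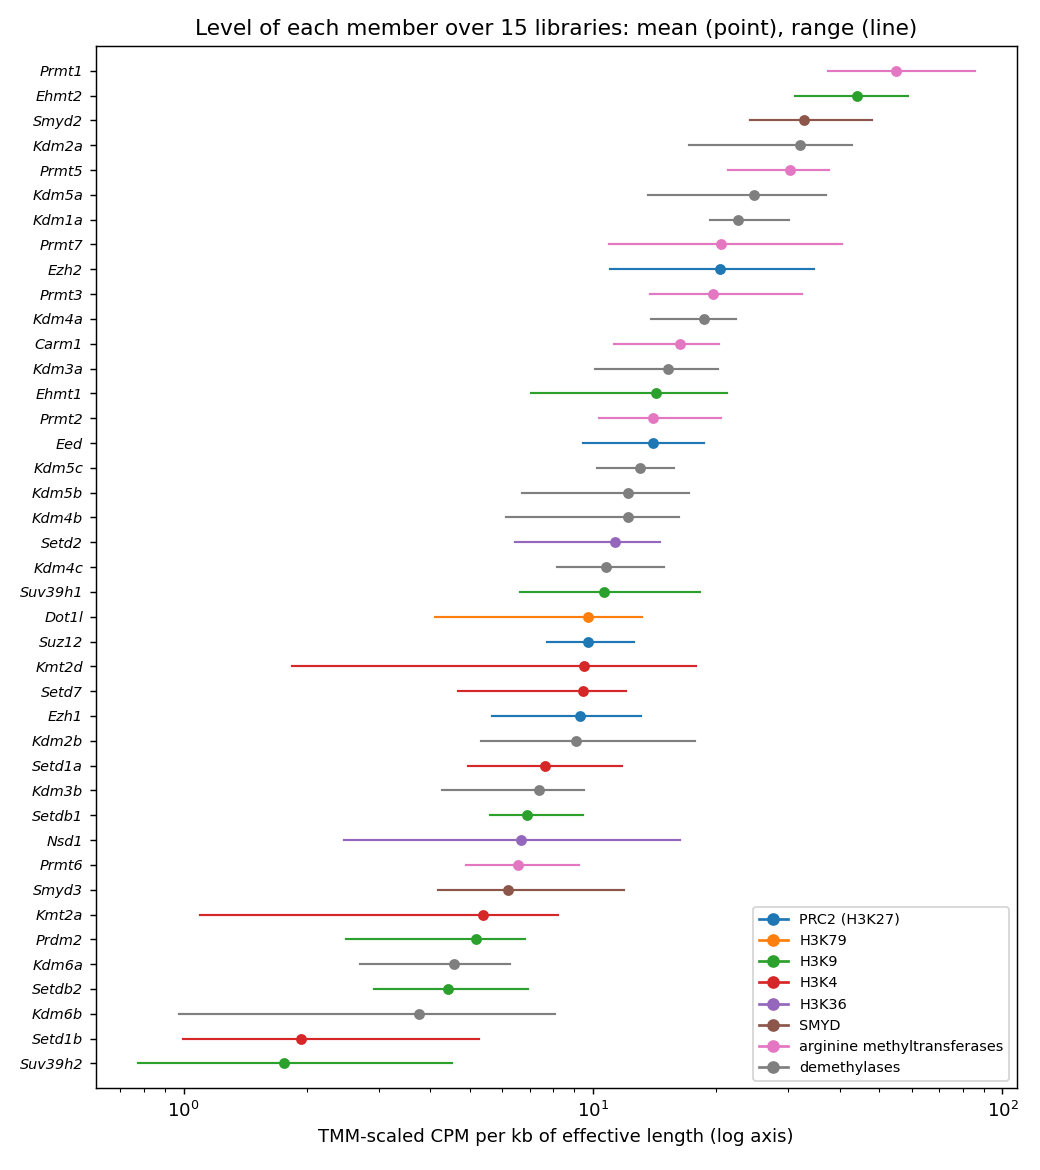
Mean level of each of the 41 genes over 15 libraries (points, TMM-scaled CPM per kb on a log axis) with the range over libraries (lines), coloured by role. Prmt1 is highest at 54.9 and Suv39h2 lowest at 1.76 CPM per kb, and the lines of Kmt2d, Kmt2a and Setd1b are among the longest.

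Paralogs that do related work stood at unequal levels per kb. Ezh2 and Ezh1 are the alternative catalytic subunits of Polycomb repressive complex 2. Per kb, Ezh2 was above Ezh1 in all 15 libraries, with a ratio of 2.26 ± 0.676 (SD, n = 15). By CPM alone the mean of Ezh1 was the higher in every diet, with 28.7 against 24.45 in adequate and 33.3 against 25.4 in supplemented. It was 31.8 against 28.4 in restricted and 41.5 against 22.2 in deficient. The order per kb thus rests on the effective length, which differed between libraries. Ezh2 stood at 27.9, 28.9 and 28.4 CPM in the restricted libraries but at 21.6, 34.6 and 19.9 per kb. In ascending order the ratio was 1.18, 2.19 and 2.94 in the adequate libraries, 2.14, 2.74 and 3.77 in the restricted, 1.3, 1.64 and 2.36 in the deficient, and 1.59 to 2.72 with a median of 2.28 in the supplemented. These ranges overlap between all diets. Suv39h1 exceeded Suv39h2, its partner in H3K9 trimethylation, by 7.05 ± 2.75 times, from 4.04 in restricted 3 to 12.9 in supplemented 6. The ratio of Ehmt2 to Ehmt1 (the G9a and GLP genes, which act as a heterodimer) was 3.36, 4.27 and 4.43 in the adequate libraries and 2.54 to 3.34 with a median of 2.78 in the supplemented, so these 2 diets did not overlap. In the restricted libraries it was 2.66, 2.67 and 3.41, and in the deficient 3.07, 3.31 and 3.76. Kdm6a and Kdm6b, the H3K27 demethylases UTX and JMJD3, were near balance at 1.41 ± 0.672, with 3.38 in adequate 1 and 0.774 in deficient 3 as the extremes.

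In no comparison of diets did any of the 41 genes pass an adjusted p of 0.05 in edgeR's quasi-likelihood test. This count of 0 of 41 holds for deficient against adequate (0.00625% of the 16001 genes tested passed, that is 1 gene), restricted against adequate (0%), supplemented against adequate (0%), deficient against restricted (0%), deficient against supplemented (0%), restricted against supplemented (0%) and both low diets against supplemented (0%). It also holds for any difference among the 4 diets (0.00625%) and for a trend along the methionine rank (0%). The smallest adjusted p of a member was 0.149, for Nsd1 in deficient against adequate. The 3 comparisons with the adequate diet share its 3 libraries, so their values are given side by side.

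Members at an unadjusted p under 0.05 by edgeR are given beside the share of all genes there. In deficient against adequate there were 7 of 41 members (15.1% of all genes), 6 higher (Nsd1, Ezh1, Kdm2a, Kmt2a, Carm1 and Setd1b, against 9.29%) and 1 lower (Prmt1, against 5.84%). In restricted against adequate there were 4 (9.17%), 2 higher (Carm1 and Kdm2a, against 4.87%) and 2 lower (Prmt1 and Prmt6, against 4.31%). In supplemented against adequate there were 7 (9.77%), 5 higher (Ehmt1, Carm1, Nsd1, Kmt2a and Kdm2a, against 4.85%) and 2 lower (Prmt6 and Prmt1, against 4.92%). With 1 library left out these counts ran from 3 to 10, from 2 to 5 and from 2 to 9. Without adequate 1 they were 3, 2 and 2. The deficient count was also 3 without deficient 3, the restricted one 2 without restricted 1, and the supplemented one 3 or 4 without supplemented 1, 3, 4 or 6. Without adequate 1, supplemented 5 and deficient 3 together they were 6, 5 and 7. Between the deficient and restricted diets 1 member was under it, against 7.44%, and between deficient and supplemented 1, against 5.45%. Restricted against supplemented and both low diets against supplemented gave 0 members, against 2.18% and 2.26%. For any difference 3 members were under it, against 9.47%, and for the trend 0, against 3.47%. With adequate 1, supplemented 5 and deficient 3 left out together, it was 7 members for deficient against supplemented and 2 for restricted against supplemented. It was then 6 for both low diets against supplemented, 7 for any difference, 7 for the trend and 1 for deficient against restricted. The share of all genes under it was not computed for the fits with libraries left out. DESeq2 counted 2 members in deficient against adequate at an adjusted p under 0.05 (3.49% of all genes). It counted 0 members in restricted against adequate (0.687%), supplemented against adequate (0.656%), deficient against restricted (0.0562%), any difference (1.55%) and the remaining 4 tests (0%).

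The median log2 fold change of the 41 genes lay slightly above that of all genes for deficient and supplemented against adequate, and further above it for restricted. It was 0.05 for deficient against adequate, where the median of all genes was 0.04, and 0.13 for restricted against adequate, where it was 0.0046. For supplemented against adequate it was 0.06, where all genes had 0.03. Above 0 were 25 of the 41 in the deficient comparison (52.9% of all genes), 27 in the restricted (50.4%) and 23 in the supplemented (52.9%). Library values did not overlap between deficient and adequate (15.9% of all genes) for 4 members that were higher (7.91%) and 2 that were lower (7.96%). Between restricted and adequate (16.8%) it was 4 higher (8.54%) and 2 lower (8.27%), and between supplemented and adequate (4.41%) 1 higher (2.17%) and 1 lower (2.24%). Between deficient and restricted (11.2%) it was 4 higher (4.71%) and 1 lower (6.47%). For deficient against supplemented (1.91%), restricted against supplemented (2.11%) and both low diets against supplemented (0.144%) it was 0 members.

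Of the 2 H3K36 methyltransferases, Nsd1, which makes H3K36 dimethylation, had the smallest p of the whole list. It stood at 21.0, 42.0 and 40.9 CPM in the adequate libraries, at 55.1, 58.4 and 145 in the deficient, at 45.4, 49.8 and 54.8 in the restricted, and between 44.7 and 66.1 with a median of 54.6 in the supplemented. Adequate 1 was the lowest library and deficient 3 the highest, and no adequate library reached the others. The difference from adequate was 1.31 (log2 fold change, SE 0.336, adjusted p = 0.149 by edgeR) for deficient and 0.67 (SE 0.295, adjusted p = 0.5) for supplemented, the latter 0.40 without adequate 1. DESeq2 gave 1.37 with an adjusted p of 0.0123 for the deficient diet. Without deficient 3 the edgeR value was 0.71, and against the supplemented diet it went from 0.64 (SE 0.280, adjusted p = 0.87) to 0.04. Against the restricted diet the deficient value was 0.79 (SE 0.333, adjusted p = 0.649), and 0.18 without deficient 3. Nsd1 also had the smallest p for any difference among the diets (adjusted p = 0.423 by edgeR), and its trend was -0.18 per methionine rank (SE 0.104, adjusted p = 1), or 0.0057 without deficient 3. Setd2, the H3K36 trimethylase, had 0.51 (SE 0.282, adjusted p = 0.403) for deficient against adequate, with overlapping libraries.

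The 5 H3K4 methyltransferases (Setd1a, Setd1b, Setd7, Kmt2a and Kmt2d) had log2 fold changes above 0 in all 3 comparisons with adequate, with medians of 0.78 for deficient, 0.47 for restricted and 0.77 for supplemented, against 52.9%, 50.4% and 52.9% of all genes above 0. None passed the edgeR test, and their libraries overlapped between diets. Kmt2d, an enhancer H3K4 monomethylase, stood at 36.2 CPM in adequate 1 but at 176 and 158 in the other two adequate libraries. Its deficient values were 159, 127 and 351, its restricted values 193, 151 and 168, and its supplemented values ran from 95.3 to 283 with a median of 214.8. Kmt2a, the MLL gene, stood at 13.3 in adequate 1 and at 49.4 and 64.1 in the others, at 68.6, 57.2 and 134 in the deficient libraries, at 80.0, 71.1 and 61.2 in the restricted, and at 45.4 to 104 with a median of 78.9 in the supplemented. Setd1b, of the Set1 complexes that trimethylate H3K4 at promoters, stood at 3.02, 10.1 and 10.1 CPM in the adequate libraries and at 8.72, 10.9 and 38.6 in the deficient. For Kmt2d and Kmt2a adequate 1 was below every other library and deficient 3 was the highest. Without adequate 1 the class medians were 0.33, 0.02 and 0.36 in place of 0.78, 0.47 and 0.77, and 4 of the 5 were above 0 in each. Without deficient 3 the deficient median was 0.32. Without adequate 1, supplemented 5 and deficient 3 they were -0.04 (2 of 5 above 0), 0.01 (4 of 5) and 0.51 (4 of 5).

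Prmt1 had the lowest log2 fold change of the 7 arginine methyltransferases in deficient and in restricted against adequate. Its adequate libraries held 81.3, 66.8 and 67.6 CPM, its deficient ones 44.8, 51.6 and 39.2, its restricted ones 55.0, 44.1 and 52.7, and its supplemented ones 44.9 to 72.7 with a median of 53.8. All adequate values lay above all restricted and deficient values, and the supplemented range overlapped the adequate one. The log2 fold change was -0.67 (SE 0.190, adjusted p = 0.166 by edgeR) for deficient against adequate and -0.51 (SE 0.190, adjusted p = 0.443) for restricted. DESeq2 gave -0.64 with an adjusted p of 0.0418 for deficient. With one library left out at a time the deficient value ran from -0.78 to -0.57, all of 1 sign. Against the supplemented diet the deficient value was -0.31 (SE 0.166, adjusted p = 0.87) and that of both low diets -0.23 (SE 0.134, adjusted p = 1), the latter -0.14 without supplemented 5. The test of any difference gave Prmt1 an adjusted p of 0.444 and Carm1 one of 0.519 by edgeR, and the Prmt1 trend was 0.11 per rank (SE 0.0647, adjusted p = 1). The gene ID was identified through 2 of its 11 transcript IDs, which the reference annotation files under Prmt1.

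Carm1, which dimethylates arginines of histone H3 and coactivators, had its lowest values on the adequate diet. It stood at 35.2, 34.6 and 41.8 CPM on the adequate diet, 43.0, 51.6 and 51.6 on the deficient, 58.2, 54.1 and 48.7 on the restricted, and 38.4 to 59.7 with a median of 46.7 on the supplemented. Both low diets lay above the adequate range. The log2 fold changes were 0.53 (SE 0.172, adjusted p = 0.395 by edgeR) for restricted, 0.39 (SE 0.171, adjusted p = 0.3) for deficient and 0.35 (SE 0.150, adjusted p = 0.495) for supplemented, and 0.18 (SE 0.147, adjusted p = 1) for restricted against supplemented, which was 0.12 without restricted 1. Prmt6, which places asymmetric dimethylation at arginine 2 of H3, stood at 17.4, 23.4 and 19.1 CPM on adequate, 15.98, 16.2 and 12.02 on restricted and 12.2 to 17.2 on supplemented. Its adequate values exceeded all of these. The deficient values of 16.7, 17.0 and 18.6 overlapped them. Its log2 fold changes were -0.46 (SE 0.170, adjusted p = 0.423 by edgeR) for supplemented and -0.44 (SE 0.200, adjusted p = 0.526) for restricted. Of the 7 arginine methyltransferases, 4 were above 0 in the deficient and 2 in the restricted comparison with adequate, so the class had no common direction. Prmt2, Prmt3 and Prmt7 spanned 19.9 to 38.8, 30.5 to 65.3 and 28.5 to 78.1 CPM over all libraries, and none had an unadjusted p under 0.05 against adequate. Prmt5, the main symmetric dimethylase, had -0.25 (SE 0.203) for deficient, -0.01 for restricted and -0.11 for supplemented against adequate.

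**Figure D2:**
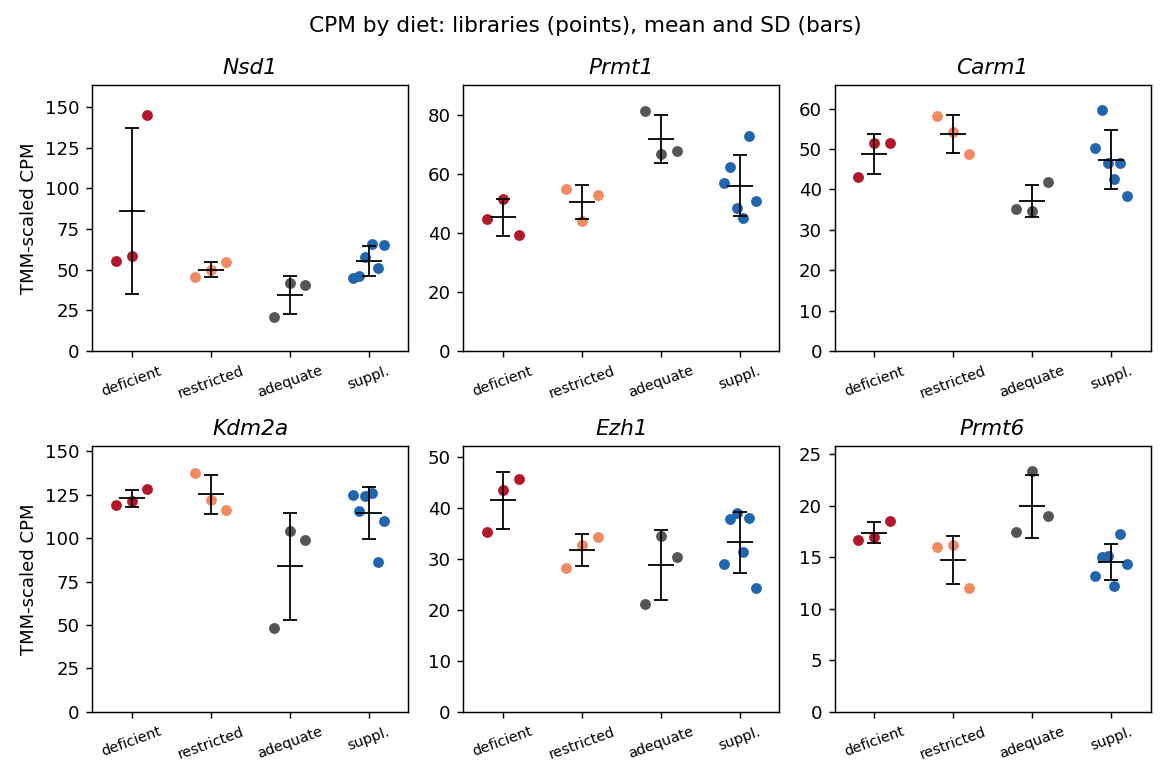
TMM-scaled CPM of 6 members by diet, with libraries as points and the mean ± SD as bars. In Nsd1 the deficient mean rests largely on deficient 3 at 145 CPM, in Prmt1 the adequate libraries at 66.8 to 81.3 lie above all restricted and deficient ones, and in Kdm2a and Ezh1 adequate 1 is the lowest library.

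Among the 13 demethylases, Kdm2a, an H3K36 demethylase with a CpG-binding domain, stood at 48.5 CPM in adequate 1 and at 104 and 98.9 in the other adequate libraries. Its deficient values were 119, 122 and 128 and its restricted values 137, 122 and 116, all above the adequate ones, while the supplemented values of 86.5 to 126 (median 119.9) overlapped them. The log2 fold change was 0.55 (SE 0.231, adjusted p = 0.277 by edgeR) for deficient and 0.58 (SE 0.231, adjusted p = 0.471) for restricted, and 0.27 and 0.29 without adequate 1. Kdm3a, an H3K9 demethylase that is known to respond to low oxygen, was lower in the deficient libraries (63.0, 67.0 and 51.5) than in 2 of the restricted ones (92.5 and 90.3, with 63.6 in the third). The log2 fold change for deficient against restricted was -0.44 (SE 0.216, adjusted p = 0.683 by edgeR). Restricted against supplemented gave 0.33 (SE 0.184, adjusted p = 1), where the supplemented values ran from 47.3 to 83.9. Kdm3b, its relative, had -0.24 (SE 0.217, adjusted p = 1) in that comparison, with -0.08 without restricted 1 and -0.45 without restricted 3. Kdm1a, the flavin-dependent LSD1 that acts on H3K4, had 0.02, 0.04 and -0.02 for deficient, restricted and supplemented against adequate. Kdm6b, the inducible H3K27 demethylase, stood at 6.36, 26.7 and 21.9 CPM in the adequate libraries and at 16, 21.5 and 52.8 in the deficient, and the difference in log2 CPM from the fit was 0.71 (SE 0.478, adjusted p = 0.494 by edgeR). Its extremes were thus adequate 1 and deficient 3. The H3K9 and H3K36 demethylases Kdm4a, Kdm4b and Kdm4c spanned 59.2 to 91.9, 22.9 to 59.8 and 33.2 to 58.2 CPM over all libraries. The H3K4 demethylases Kdm5a, Kdm5b and Kdm5c spanned 78.3 to 125, 21.4 to 69.8 and 40.8 to 83.8. Kdm2b spanned 15.7 to 33.1. Of the 13, 9 were above 0 in deficient and in restricted against adequate, and 7 in supplemented.

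In the Polycomb repressive complex 2, Ezh1 was the only subunit with a p under 0.05 in the deficient comparison. Its adequate values were 21.2, 34.6 and 30.5 CPM, its deficient ones 35.2, 43.6 and 45.7, its restricted ones 28.3, 32.7 and 34.4, and its supplemented ones ran from 24.4 to 38.9 with a median of 34.6. The deficient libraries were above the adequate and above the restricted ones. The log2 fold change was 0.53 (SE 0.215, adjusted p = 0.268 by edgeR) against adequate, 0.38 (SE 0.215, adjusted p = 0.727) against restricted and 0.32 (SE 0.184, adjusted p = 0.888) against supplemented. Without adequate 1 the first of these was 0.34. Ezh2, Eed and Suz12 were below 0 in the deficient comparison with adequate. Ezh2 had -0.14 (SE 0.243), with adequate values of 28.1, 18.5 and 26.7 and deficient values of 16.6, 31.4 and 18.8 CPM, which overlap. Eed, which binds trimethylated H3K27, ran from 9.12 to 27.1 CPM over the 15 libraries, and Suz12, the scaffold subunit, from 32.6 to 53.2.

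Of the 7 H3K9 methyltransferases, Ehmt1 had a p under 0.05, for supplemented against adequate, at 0.37 (SE 0.152, adjusted p = 0.483 by edgeR). It stood at 29.04, 39.1 and 44.4 CPM in the adequate libraries and at 41.4 to 56.1 in the supplemented ones, which overlap, and the value was 0.20 without adequate 1. Suv39h1 had -0.25 (SE 0.186, adjusted p = 1 by edgeR) for both low diets against supplemented, and -0.07 without supplemented 5, the library in which it was highest with 48.7 CPM. Its trend was 0.10 per rank (SE 0.0681, adjusted p = 1), and 0.041 without that library. Over all libraries Setdb1, the H3K9 trimethylase of silenced retroelements, spanned 25.1 to 39.9 CPM, Setdb2 8.03 to 13.7 and Prdm2 15.99 to 46.3. Dot1l, the H3K79 methyltransferase, had 0.30 (SE 0.366) for deficient and 0.47 (SE 0.367) for restricted against adequate. Of the SMYD genes, Smyd2 and Smyd3 were below 0 in deficient and in supplemented against adequate.

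The values of these genes moved with transcript length in a few libraries. For every library the slope of the log2 CPM deviation (from the median of the 15 libraries) on log2 length was taken over 9567 genes outside the list. It was -0.424 per doubling of length in adequate 1, -0.129 in supplemented 5, 0.107 in supplemented 4 and 0.202 in deficient 3, and between -0.0251 and 0.0948 in the other libraries. So in adequate 1 long genes read low over the whole transcriptome, with medians from 0.64 for genes of 300 to 1000 bases to -1.11 for those over 8000. Among the 41 members, adequate 1 was the lowest library for 17 and deficient 3 the highest for 11. The share of all genes with their extremes in these libraries was not computed. The 18 members longer than 4096 bases, a division made after the pattern was seen, had a median deviation of -1.09 in adequate 1, and the 23 shorter ones one of 0.07.

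**Figure D3:**
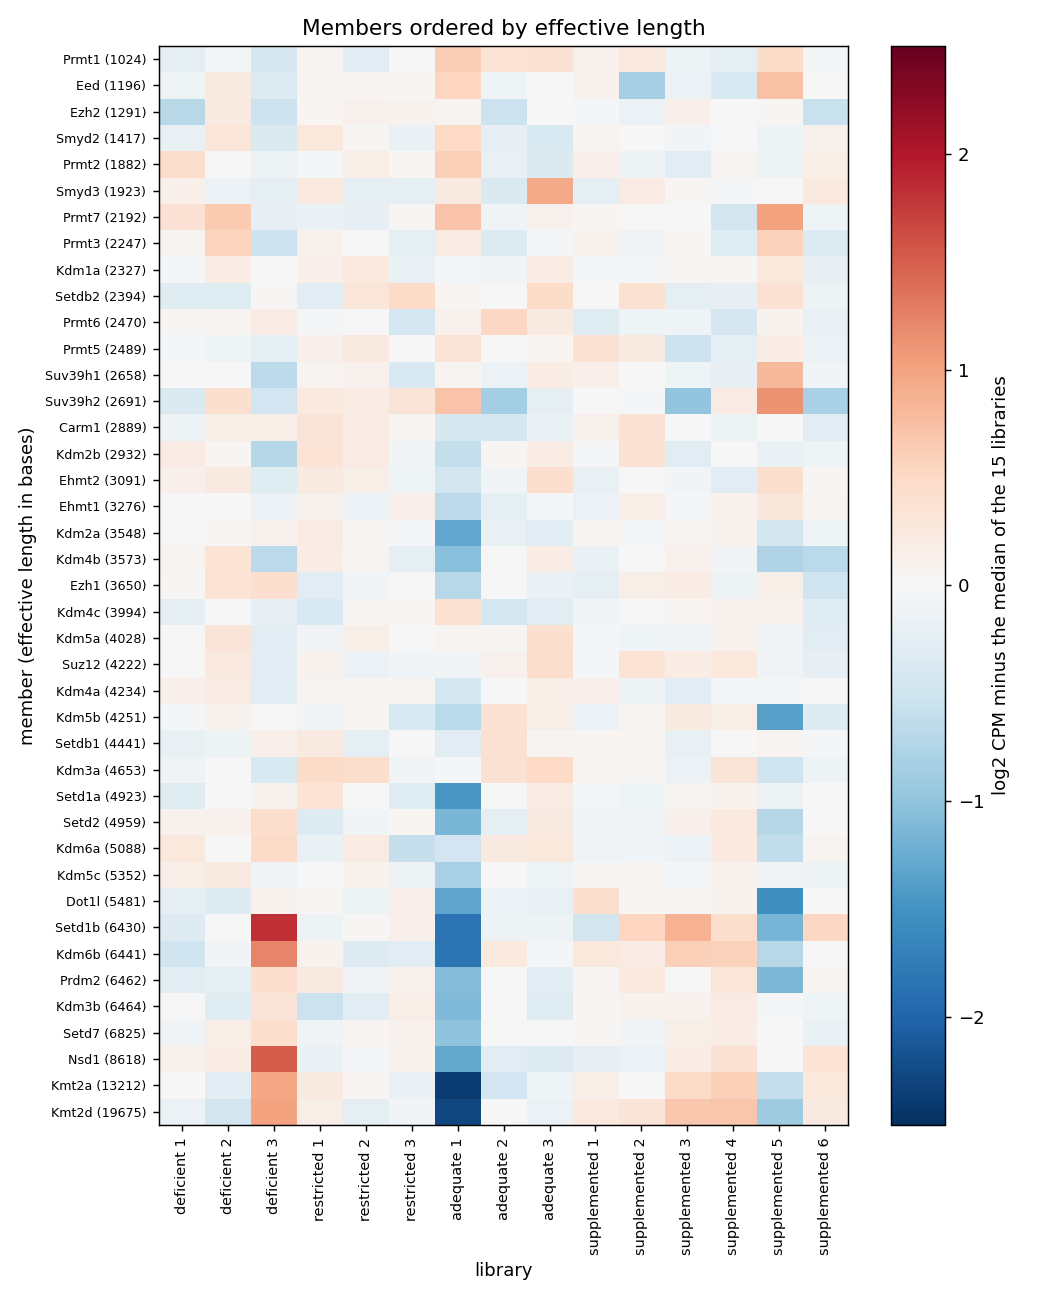
Log2 CPM of each member minus its median over the 15 libraries, with members ordered by effective length in bases (in brackets) and libraries ordered by diet. Adequate 1 is blue for the long members, down to -2.36 for Kmt2a, and red for short ones such as Prmt1 at 0.62, while deficient 3 is red for long members, with Nsd1 at 1.5.

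Some members with large differences between diets sit at the ends of this length order, and others, such as Kdm2a (3548 bases), Ezh1 (3650 bases) and Carm1 (2889 bases), lie in its middle. Kdm2a, Ezh1 and Carm1 still deviated by -1.29, -0.70 and -0.41 in adequate 1, and by 0.11, 0.41 and 0.14 in deficient 3. Kmt2d, with 19675 bases the longest, deviated by -2.28 in adequate 1 and by 1.00 in deficient 3. Kmt2a (13212 bases) deviated by -2.36 and 0.96, and Nsd1 (8618 bases) by -1.28 and 1.5. Prmt1, with 1024 bases the shortest, deviated by 0.62 and -0.43. Across the 41 genes, the correlation of deviation with log2 length was -0.843 in adequate 1, -0.58 in supplemented 5 and 0.692 in deficient 3. Genes are not independent replicates, and these values describe those libraries.

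**Figure D4:**
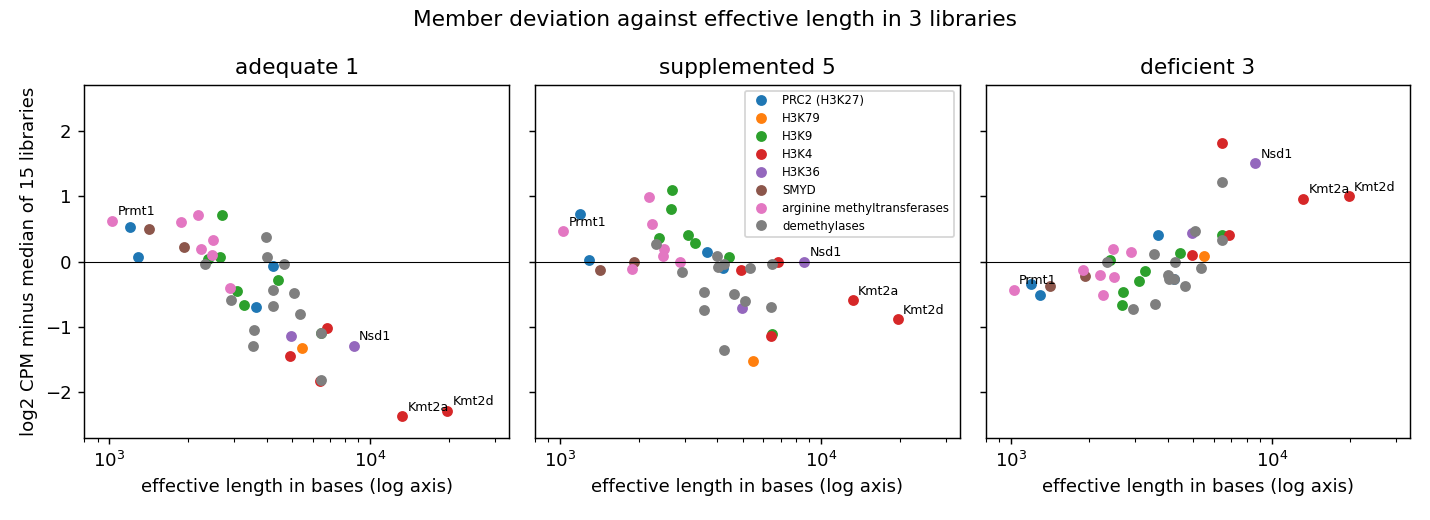
Deviation of each member from its median over 15 libraries (log2 CPM) against effective length (log axis), for 3 libraries, coloured by role. The points fall with length in adequate 1 (r = -0.843) and supplemented 5 (r = -0.58) and climb in deficient 3 (r = 0.692).

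Over the 15 libraries the level of a member was related to the length slope of the library for 20 of 41 genes at an adjusted p under 0.05, 14 with a positive and 6 with a negative sign, by permutation tests of Pearson's r over 41 relations. By Spearman's rho it was 10. The relation was computed for the members alone, so no share of all genes can be set beside these counts. It was added after the length pattern was seen. The slope is the length trend of the other genes in a library. A relation of very long or short members to it thus follows in part from their length. Kmt2d had r = 0.982 (p = 1e-05, the smallest the permutations can give, adjusted p = 0.000137, rho = 0.961 with p = 1e-05), and r = 0.958 without adequate 1 and deficient 3, the 2 libraries farthest from the median slope. Nsd1 had r = 0.833 (permutation p = 0.00269, adjusted p = 0.01, rho = 0.514 with p = 0.0518) and only 0.327 without them. Prmt1 had r = -0.734 (permutation p = 0.00046, adjusted p = 0.00269, rho = -0.432 with p = 0.109) and -0.475 without them. Kdm2a had r = 0.891 (permutation p = 0.00085, adjusted p = 0.00348, rho = 0.496 with p = 0.0627) and 0.583 without them. Ezh1 had r = 0.608 (permutation p = 0.0188, adjusted p = 0.0429, rho = 0.218 with p = 0.437) and -0.144 without them. Carm1 had r = 0.406 (permutation p = 0.134, adjusted p = 0.19). Of the 20, 12 kept their sign and an absolute r above 0.5 without the pair. Within diets, after subtraction of each diet's mean, r was 0.985 for Kmt2d, 0.806 for Nsd1 and -0.686 for Prmt1. Without adequate 1, supplemented 5 and deficient 3 it was 0.930, 0.440 and -0.189.

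When the length trend of each library was taken out, the median fold changes of the long genes came closer to 0. Both fits used remove a trend with length, so a shift in genes grouped by length follows in part from the fit itself. With a length offset in the edgeR fit, the H3K4 class medians were 0.13, 0.29 and 0.36 for deficient, restricted and supplemented against adequate, and with the length slope as a covariate they were 0.11, 0.09 and 0.05. The 18 long members had a median of 0.37 in deficient against adequate, with 15 above 0, where 52.9% of all genes of any length were. The share among all long genes, which read low in adequate 1, is not given here. The median of the 18 became 0.13 without adequate 1, 0.19 without deficient 3, 0.07 with the offset and -0.14 with the covariate. Nsd1 went from 1.31 to 0.80 (adjusted p = 0.18) and 0.73 (adjusted p = 0.371), and Prmt1 from -0.67 to -0.48 (adjusted p = 0.209) and -0.45 (adjusted p = 0.41). What sets the length slope of a library was not tested.

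Bulk metastases also differ in how many cells divide and how much lung they hold, so every member was set against a G2/M and mitosis list of 20 genes and the alveolar list, 82 relations in one family over 15 libraries. No member passed an adjusted p of 0.05 for the G2/M list. By Spearman's rho the highest was Prmt5 (rho = 0.629, permutation p = 0.0141). By Pearson's r the highest were Ezh2 (r = 0.614, permutation p = 0.0181, rho = 0.407 with p = 0.132), Suv39h1 (r = 0.571, permutation p = 0.036, rho = 0.561 with p = 0.032) and Suv39h2 (r = 0.538, permutation p = 0.0386, rho = 0.514 with p = 0.0517). These r values all had an adjusted p of 0.191. Without adequate 2 and deficient 3 they were 0.325, 0.292 and 0.412, and within diets 0.495, 0.699 and 0.554. Without adequate 1, supplemented 5 and deficient 3 they were 0.547, 0.216 and 0.612. The lowest were Kdm6a (r = -0.568), Prmt6 (r = -0.556) and Kdm6b (r = -0.447).

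Against the alveolar list, 3 members passed, all negative. The share of all genes that would pass for either list was not computed. Suv39h1, the gene whose start region was shown above, had r = -0.858 (permutation p = 0.00024, adjusted p = 0.0197, rho = -0.839 with p = 0.00018), Kdm1a r = -0.739 (permutation p = 0.00105, adjusted p = 0.043, rho = -0.639 with p = 0.013) and Prmt3 r = -0.741 (permutation p = 0.00162, adjusted p = 0.0443, rho = -0.700 with p = 0.00506). Without restricted 2 and supplemented 5, the libraries farthest from the median, r was -0.786, -0.491 and -0.762. Without adequate 1, supplemented 5 and deficient 3 it was -0.546, -0.790 and -0.486, and none of the 3 then passed. Within diets it was -0.922, -0.800 and -0.828. The alveolar list was itself related to the G2/M list (r = -0.671, permutation p = 0.0086, rho = -0.729), and to the length slope by rho (0.725, permutation p = 0.00318). Its r with the length slope was 0.432 (permutation p = 0.121), and 0.785 without adequate 1 and deficient 3. The part of lung tissue and of dividing cells in the relations of these 3 genes cannot be told apart with these libraries.

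Of 60 other genes of the same machinery, 59 were tested: further methyltransferases and demethylases, complex partners, and the genes that make and clear S-adenosylmethionine. None passed the edgeR test in any of the 4 comparisons deficient, restricted and supplemented against adequate and deficient against restricted. At an unadjusted p under 0.05 there were 10 of them (7 higher, 3 lower) where 15.1% of all genes had it, 7 (4 and 3) where 9.17% did, 7 (5 and 2) where 9.77% did and 4 (4 and 0) where 7.44% did. The smallest adjusted p was 0.166 for the deficient diet, in Atf7ip, a partner of Setdb1, with a log2 fold change of 0.96 (SE 0.277), and it was 0.69 and 0.65 for restricted and supplemented. Cbx5, which encodes the heterochromatin protein HP1 alpha that reads H3K9 methylation, was at 0.53, 0.80 and 0.62 for deficient, restricted and supplemented, with an adjusted p of 0.199 for restricted, and its adequate libraries were below all others. Mat2b, the regulatory subunit of the S-adenosylmethionine synthetase, had -0.42, -0.36 and -0.59 with adjusted p of 0.329, 0.64 and 0.322 by edgeR, and the adequate libraries were above all others. Kdm7a and Kdm1b, demethylases of H3K9 or H3K27 and of H3K4, were higher in the deficient than the restricted libraries, at 0.66 (SE 0.171) and 0.71 (SE 0.227), both with an adjusted p of 0.649 by edgeR, with libraries that did not overlap.

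The Y-linked paralogs of 2 members were low. Kdm5d summed to 420 counts over the 15 libraries, with a median of 1.22 CPM and 3.78 in deficient 3, while its X-linked partner Kdm5c stood at 40.8 to 83.8 CPM. Uty summed to 507 counts, with a median of 1.5 CPM and 6.89 in deficient 3, while Kdm6a stood at 15.1 to 32.0 CPM. Both were highest in deficient 3, the library with the most alveolar RNA. Supplemented 5, with the least, had 1.61 CPM of Kdm5d and 1.36 of Uty. A relation of these genes to the alveolar list was not tested.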

How the data were processed

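RNA from lung metastases was depleted of ribosomal RNA and made into strand-marking total RNA libraries, per the labels' protocols. The values the submitters deposited are expected counts, estimated per gene by RSEM. Their processing notes name Bowtie2 2.2.9, RSEM 1.30, edgeR and build NCBIM37. How strand was handled in counting is not given in the sources, so it is not known whether reads of overlapping genes on opposite strands were kept apart. The deposited effective length was used for levels per kb and for the length slope.

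Counts were rounded to whole numbers. edgeR 4.0.16 in R 4.3.3 kept 16001 genes with filterByExpr on the 4 diets, scaled libraries by TMM and tested all contrasts in a single fit of 15 libraries (11 residual degrees of freedom, biological coefficient of variation 0.461) by the quasi-likelihood test, with Benjamini-Hochberg adjustment over all genes at 0.05. The trend was a separate fit on methionine rank. Log2 CPM used a prior count of 2. The length slope used genes with a mean log2 CPM of at least 3 and an effective length over 300 bases. Correlations had 100000 permutations. The steps were tested on simulated counts. DESeq2 1.42.0, limma-voom in limma 3.58.1, upper-quartile scaling, no filter on low counts, alveolar and G2/M covariates, each contrast's groups alone, and libraries left out were the alternatives; the length offset, the length covariate and the length relations were added after the data were seen.

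The members and gene lists were chosen with earlier results of these data known. The members named in full are those with the 3 smallest p in a comparison. Also named are those with an unadjusted p under 0.05 and libraries that do not overlap, and the 3 highest and 3 lowest in level. So are 4 paralog pairs and the members with the 3 highest and 3 lowest Pearson correlations with the G2/M list. Kmt2d, Kmt2a, Setd2, Prmt5, Kdm1a and Dot1l were added after their values were seen. Spearman's rho across genes was 0.884 to 0.980 in the 24 pairs of libraries of one diet, which held equal counts for 1.04% to 2.9% of genes, so none was a repeat. Coordinates are given only for the RefSeq start regions on GRCm38.p6, since the files are on another build; 31 of the 41 members had one.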

Additional observations from a re-analysis of the deposited data

Results flagged for a closer look

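Within the 6 supplemented libraries, the only diet with enough libraries for the check, the highest or lowest library was set apart from the others for 6 of the 41 genes, with a gap to its neighbour of more than 0.625 of the whole range (the 95% critical value for 6 samples). Chance alone sets apart about 5% of such groups. The share of all genes set apart in this way was not computed, so the count cannot be read as particular to these genes. For 5 of the 6 the library was supplemented 5, which also had the lowest alveolar level and the highest muscle level of its diet. Dot1l stood there at 20.3 CPM, against 58.4 to 78.3 in the others, and Prdm2 at 15.99, against 34.7 to 42.9. Suv39h1 stood at 48.7, against 24.0 to 30.5, Ehmt2 at 176.7, against 111.3 to 135.1, and Prmt7 at 78.1, against 28.5 to 40.3. Kdm2b was highest in supplemented 2 at 33.1 CPM, against 21.7 to 25.8. The part of the muscle RNA or of the length slope of supplemented 5 (-0.129) in these values was not tested.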

How the results depend on the processing

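No paired analysis was possible because the labels give no replicate numbers: those used here only name the libraries of a diet and tie none to a library of another diet. Over 28 pairs of a member and a comparison, 697 alternative values were computed, of which 688 kept their direction and side of the threshold. Of the 223 counts of called members, 222 stayed as reported. The reported counts were all 0 and few genes of any kind passed in most of these fits, so an unchanged count says little. Counts at an unadjusted p under 0.05 did move. For the trend, 0 members became 7 by edgeR without adequate 1, supplemented 5 and deficient 3. DESeq2 called 2 members in deficient against adequate in place of 0, and the cause was not tested. The count of relations, 3, became 0 without adequate 1, supplemented 5 and deficient 3, where 12 libraries entered and r was nearer 0 for Suv39h1 and Prmt3 but not for Kdm1a. Without these 3 libraries Suv39h1 was 0.019 and Nsd1 -0.081 for both low diets against supplemented, and the trend per rank was 0.015 for Nsd1 and -0.0085 for Suv39h1, against 0.10 for Suv39h1 and -0.18 for Nsd1 in all libraries. With one library left out, Nsd1 ran from -0.050 to 0.36 for the low diets against supplemented and from -0.21 to 0.0057 for the trend, in both cases turning without deficient 3. With the G2/M list as a covariate, Nsd1 in deficient against restricted was -0.019. At 3 libraries per diet, differences of the size reported here did not pass edgeR's test, which does not show that the diets act alike.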
